A study of Mus musculus with 12 samples.

Results

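Bone morphogenetic proteins (BMPs) are secreted ligands that bring type I and type II receptor kinases together on the cell surface. The type II receptor switches on the type I receptor, which phosphorylates SMAD1, SMAD5 and SMAD9, and these enter the nucleus with SMAD4 and raise transcription of the *Id* genes, whose products block basic helix-loop-helix transcription factors. Oocytes secrete the related ligands BMP15 and GDF9, and BMPs from the surrounding cells also act on early follicles. Dorsomorphin (DM, also called Compound C) is used as an inhibitor of AMPK, and it is also known to inhibit BMP type I receptor kinases. The 10 genes described here are therefore its other known target and the steps after it. They are the type I receptors *Bmpr1a*, *Bmpr1b* and *Acvr1*, the type II receptor *Bmpr2*, the receptor-activated SMADs *Smad1*, *Smad5* and *Smad9*, and the targets *Id1*, *Id2* and *Id3*. They were chosen by symbol, and each matched 1 of the 55401 genes in the count table.

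The libraries came from oocytes of F1 mice of the cross C57Bl/6j x CBA/J, which the study's methods give as 7 to 8 days old. Ovaries were cultured for 5 days with DM dissolved in DMSO, or with DMSO alone as the control (labelled sham). The methods give 5 to 10 µM DM, with 10 µM as the lead concentration, and the labels state no dose. Oocytes from primordial follicles, which are dormant, and from primary follicles, which have begun to grow, were cut out of stained, fixed ovary sections by laser capture, pooled by stage, and their RNA was amplified before sequencing. This gave 4 groups of 3 libraries: primordial control, primordial DM, primary control and primary DM. The labels describe the material as in vivo, whereas the methods describe cultured ovaries, and the methods are followed here. The study's figure captions call the replicates biologically independent laser-captured samples, each of pooled oocytes. Whether each came from different animals was not stated, so the p-values below measure the spread between these samples.

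Total counts per library ranged from 14034586 to 42639326, and a library held between 1237 and 7072 genes with over 100 counts. The share of counts on 100 genes was highest in primary control replicate 3 (51.2%) and primary DM replicate 2 (48.5%). Primary DM replicate 3 followed at 43.7%, and the remaining libraries ran from 24.3% to 35.6%. The primary DM libraries held 1464 to 2240 genes with over 100 counts. Leaving out primary control replicate 3 or primary DM replicate 2 left the number of members called by edgeR at 0 in each comparison. A count of 0 allows up to 3 counts, which is 0.0277 to 0.347 on the scale of CPM, read counts scaled to a common library size. That limit covers counting error only, since reads from amplified RNA without molecular identifiers are not independent molecules. All 15 oocyte markers examined, such as *Ddx4*, *Kit* and *Zp3*, had over 3 counts in some library, but no single library held all of them. Per library, 10 to 13 of them had over 3 counts in primordial controls and 3 to 9 in primordial DM. In primary controls the range was 8 to 13, and in primary DM 5 to 10. The granulosa list had a larger summed level per kilobase of exon than the oocyte list in 10 of 12 libraries, and the stroma and theca list in 12 of 12. Over 3 counts in some library were also reached by 10 of 11 granulosa and 10 of 10 stroma and theca markers. The same held for 3 of 5 endothelial and 4 of 5 immune markers. At 0 throughout were the granulosa marker *Fshr*, the endothelial markers *Tek* and *Emcn* and the macrophage marker *Adgre1*. In bulk libraries like these, fewer cells of a type and less RNA per cell cannot be told apart.

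The upstream sequences of *Id2* and *Id3* are shown because the *Id* genes are the transcriptional end of the pathway, and *Id2* held over 100 counts in 4 control libraries and in 0 DM libraries. The sequences are RefSeq promoter windows on GRCm38.p6, cut to the 250 bases before the RefSeq start and written 5′ to 3′ on the gene's strand. The GENCODE gene models used for positions and exon lengths start further upstream, so both stretches lie inside those models. Capitals mark 2 GC-rich words of the kind that SMAD1 and SMAD5 are known to bind, GGCGCC, which reads the same on both strands, and GGAGCC or its complement GGCTCC. These words cannot overlap each other.
Id2, chr12:25096093-25096342, minus strand: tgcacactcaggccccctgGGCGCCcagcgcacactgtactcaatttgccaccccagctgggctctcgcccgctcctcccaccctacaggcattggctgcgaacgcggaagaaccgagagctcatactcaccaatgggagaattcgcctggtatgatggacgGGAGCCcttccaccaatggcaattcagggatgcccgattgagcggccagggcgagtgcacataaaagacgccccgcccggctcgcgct
Id3, chr4:136143572-136143821, plus strand: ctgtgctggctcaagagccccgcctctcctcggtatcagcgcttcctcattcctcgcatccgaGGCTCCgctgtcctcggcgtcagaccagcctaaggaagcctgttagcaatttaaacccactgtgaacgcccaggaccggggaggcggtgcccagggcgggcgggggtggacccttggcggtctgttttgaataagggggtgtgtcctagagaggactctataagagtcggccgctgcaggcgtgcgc
In *Id2* the marked words begin 231 and 88 bases before the start, and in *Id3* the marked word begins 187 bases before it. Windows of 300 bases, from 250 before to 50 after a start, were matched for 9 members, and *Id1* had none. GGCGCC lay in 6 of their 13 windows (*Bmpr1a*, *Bmpr2*, *Smad5*, *Smad9* and *Id2*), compared with 11.9% of all 32851 windows, and GGAGCC in 7 of 13, compared with 30.8%. Some windows of *Bmpr1b* and *Smad5* overlap one another. A match is a description of the letters and not evidence of binding.

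The members differed in how many of the 12 libraries held them. *Bmpr1a*, *Bmpr2* and *Smad5* had over 3 counts in 12 of 12 libraries, *Bmpr1b* in 8, *Id3* in 7, *Id2* in 5, *Acvr1* and *Id1* in 4 and *Smad1* in 3. *Smad9* had 0 counts in every library. Ordered by the median level in CPM per kilobase of exon, the members ran *Bmpr2* (7.58), *Bmpr1a* (5.88), *Smad5* (3.30), *Id3* (1.26), *Bmpr1b* (0.0741), *Id2* (0.0421), *Id1* (0.0165) and *Acvr1* (0.0155), with *Smad1* and *Smad9* at 0. The ranges over libraries of any neighbours in this order overlapped.

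**Figure D1:**
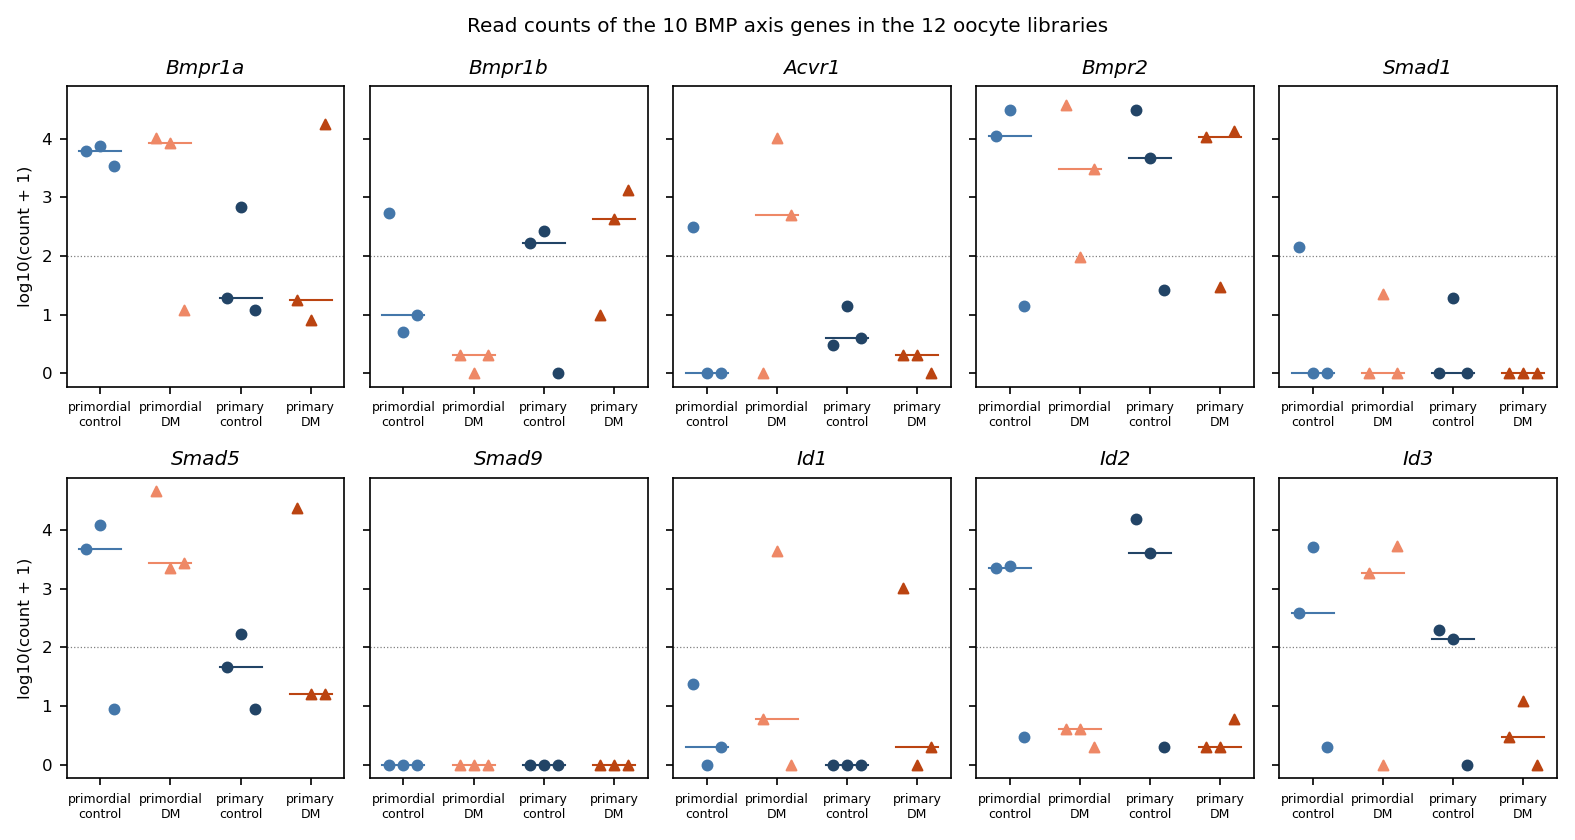
Read counts of the 10 members, as log10(count + 1) on the vertical axis, in the 4 groups on the horizontal axis. Each point is 1 library (circles control, triangles DM, replicates 1 to 3 from left to right), short lines are group medians, and the dotted line marks 100 counts. *Id2* lies above the line in 4 control libraries and at 5 counts or fewer in all 6 DM libraries, and *Smad9* is at 0 throughout.

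Libraries of the same group differed widely. For the 9 members tested over all 12 libraries, the library with the highest CPM held a median of 62.2% of the member's summed CPM, from 24.4% for *Bmpr2* to 89.7% for *Acvr1*. The median over all 8500 genes tested was 60.4%. These members exceeded 100 counts in a median of 5 libraries and all tested genes in a median of 4, so the members lay near the middle of all genes in both respects.

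DM was first compared with control in oocytes from primordial follicles, the dormant stage, by edgeR's quasi-likelihood test. Of the 10 members, 5 passed the filter on low counts, and 0 of these had an adjusted p under 0.05, where 0.0149% of the 6699 genes tested did. At an unadjusted p under 0.05 the count was 0 of 5, with 7.33% of all genes. All 5 estimates were above 0, with a median log2 fold change (log2FC) of 1.41 and 0.13 over all genes tested, but with library size alone as the scaling 2 of the 5 were below 0. DESeq2 called 1 of the 5, *Acvr1*, and 9.7% of all genes.

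*Acvr1* (ENSMUSG00000026836.15, chromosome 2, 58388644 to 58567157 on GRCm38, minus strand) encodes ALK2, a type I receptor that dorsomorphin is known to inhibit. It had 309, 0 and 0 counts in the primordial control libraries, in replicate order, versus 0, 10165 and 490 under DM. DM replicate 2 was the highest library and DM replicate 1 was at 0, so the groups overlapped. The log2FC was 6.47 (standard error, SE, 3.75, adjusted p = 0.658 from edgeR, and 0.0386 from DESeq2). Without DM replicate 2 it was 3.32 and without control replicate 1 it was 14.72.

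*Bmpr1a* (ENSMUSG00000021796.15, chromosome 14, 34410734 to 34503341, minus strand) encodes ALK3, the most widely found type I receptor here. Its exons share 290 bases with the antisense gene *Gm17110*, and the use of strand in counting was not stated. It had 6062, 7621 and 3378 counts in primordial controls versus 10303, 8576 and 11 under DM. DM replicates 1 and 2 were above all controls and DM replicate 3 far below them. The log2FC was 0.15 (SE 2.46, edgeR adjusted p = 0.993).

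*Bmpr1b* (ENSMUSG00000052430.15, chromosome 3, 141837136 to 142169425, minus strand) encodes ALK6, a receptor used by BMP15. The counts were 529, 4 and 9 in primordial controls versus 1, 0 and 1 under DM. The filter removed it, so it was not tested. On the CPM scale every DM library was below every control library, but 2 of the 3 controls held fewer than 10 counts, and 8.7% of the genes tested showed such a separation downwards.

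*Bmpr2* (ENSMUSG00000067336.6, chromosome 1, 59763400 to 59879014, plus strand), the type II receptor shared by BMPs and GDF9, had 11120, 30663 and 13 counts in primordial controls versus 36941, 95 and 3083 under DM. Control replicate 3 and DM replicate 2 were under 100 counts, the other libraries were far higher, and the groups overlapped. The log2FC was 0.17 (SE 1.96, edgeR adjusted p = 0.989). Leaving out control replicate 1, control replicate 3 or DM replicate 1 turned it below 0, as did leaving out control replicate 1, DM replicate 1 or DM replicate 2 for *Bmpr1a*.

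Among the SMADs, *Smad5* (ENSMUSG00000021540.16, chromosome 13, 56703010 to 56742377, plus strand) carried nearly all the counts. Its exons share 100 bases with *Gm27301* on the same strand. Primordial controls held 4790, 12306 and 8 counts versus 46164, 2256 and 2733 under DM. DM replicate 1 was highest and control replicate 3 lowest, and the groups overlapped. The log2FC was 1.79 (SE 2.14, edgeR adjusted p = 0.860), and -0.19 without DM replicate 1. *Smad1* (ENSMUSG00000031681.16, chromosome 8, 79338395 to 79399518, minus strand) had 140, 0 and 0 counts in controls versus 0, 21 and 0 under DM, and was not tested. *Smad9* (ENSMUSG00000027796.2, chromosome 3, 54755582 to 54801257, plus strand), also called *Smad8*, was not detectable at this depth.

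The *Id* genes are raised by active BMP signalling, and they differed in which libraries held them. *Id1* (ENSMUSG00000042745.9, chromosome 2, 152736251 to 152737410, plus strand) had 23, 0 and 1 counts in controls versus 5, 4481 and 0 under DM. Only DM replicate 2, the library that also led for *Acvr1*, was above 100 counts. *Id2* (ENSMUSG00000020644.9, chromosome 12, 25093799 to 25097140, minus strand) had 2297, 2451 and 2 counts in controls versus 3, 3 and 1 under DM, which is 22.6 ± 23.3 CPM (SD, n = 3) in controls and 0.0557 ± 0.0112 CPM (SD, n = 3) after DM. On the CPM scale its groups did not overlap either, although control replicate 3 held 2 counts and so was within the limit of a count of 0, and in raw counts the groups overlapped. Such a separation downwards was shown by 8.7% of the 6699 genes tested, which did not include *Id2* or *Bmpr1b*. *Id1* and *Id2* were removed by the filter and not tested. *Id3* (ENSMUSG00000007872.3, chromosome 4, 136143497 to 136145755, plus strand) had 383, 5074 and 1 counts in controls versus 1850, 0 and 5411 under DM, with a log2FC of 1.41 (SE 2.89, edgeR adjusted p = 0.936), which was below 0 without DM replicate 3.

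In oocytes from primary follicles, where growth has begun, 4 of the 10 members passed the filter. Of these 0 had an edgeR adjusted p under 0.05, with 0% of the 4181 genes tested, and 0 had an unadjusted p under 0.05, with 12.2% of all genes. All 4 estimates were above 0, with a median log2FC of 4.32 against 0.31 over all genes, and with library size alone 1 of the 4 was below 0. DESeq2 called 1 of the 4, *Bmpr1b*, and 16.7% of all genes, and gave no adjusted p for *Bmpr1a* and *Smad5*. The groups overlapped for all 10 members, whereas 3.44% of genes were higher and 9.4% lower in every DM library than in every control library.

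*Bmpr1b* had 167, 267 and 0 counts in primary controls versus 9, 431 and 1348 under DM. Control replicate 3 was at 0 and DM replicate 1 at 9, and in raw counts the other libraries lay within 1 order of magnitude. On the CPM scale the controls were at 3.08, 7.53 and 0 and the DM libraries at 0.539, 38.7 and 92.2. The log2FC was 3.21 (SE 2.99, adjusted p = 0.567 from edgeR, and 0.0114 from DESeq2), and it ran from 2.17 to 4.72 when single libraries were dropped. It moved more with the scaling, to 0.89 with library size alone and 6.08 with DESeq2's size factors, and was 1.94 with a replicate block. *Bmpr1a* had 18, 668 and 11 counts in controls versus 17, 7 and 17749 under DM, a log2FC of 5.42 (SE 3.78, edgeR adjusted p = 0.463) that was -3.51 without DM replicate 3. *Smad5* had 46, 171 and 8 counts in controls versus 23734, 15 and 15 under DM, a log2FC of 7.09 (SE 4.08, edgeR adjusted p = 0.397) that was -1.20 without DM replicate 1. For both genes a single DM library was high and the other DM libraries lay within the control range or below it. *Bmpr2* had 30176, 4589 and 25 counts in controls versus 10693, 28 and 13247 under DM, with a log2FC of 0.92 (SE 3.13, edgeR adjusted p = 0.881).

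**Figure D2:**
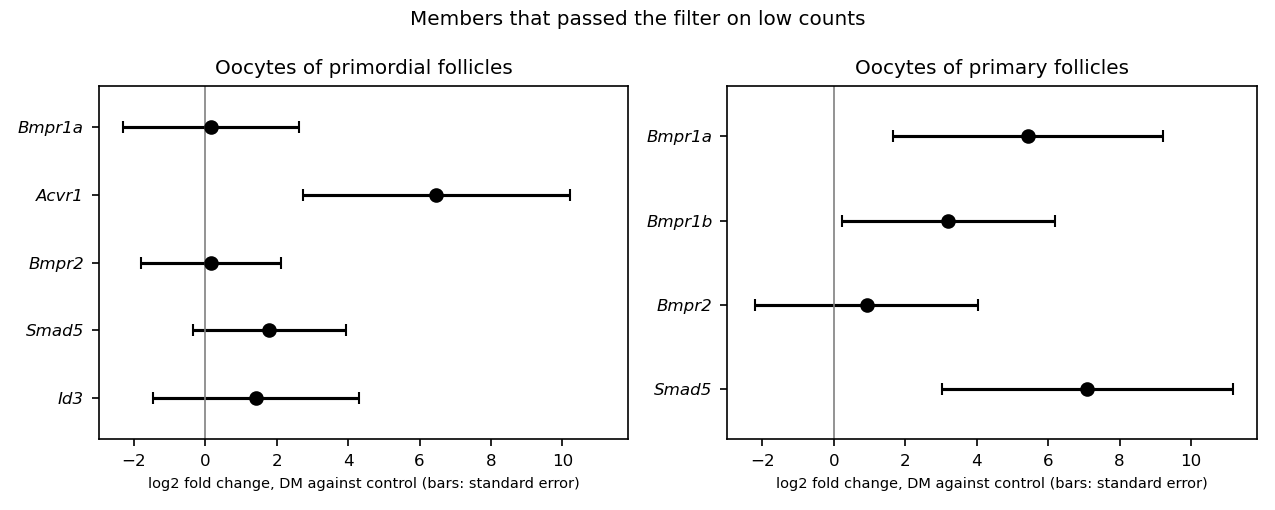
Log2 fold changes of DM against control (horizontal axis) for the members that passed the filter, 5 in primordial and 4 in primary follicles (vertical axis), from edgeR. Points are estimates and bars are 1 standard error. The estimates run from 0.15 for *Bmpr1a* in primordial to 7.09 for *Smad5* in primary follicles, with standard errors from 1.96 to 4.08, and no adjusted p is under 0.05.

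*Acvr1* had 2, 13 and 3 counts in primary controls versus 1, 1 and 0 under DM. It was near the limit of detection in all of these libraries and was not tested. *Smad1* had 0, 18 and 0 counts in controls and 0 in each DM library. *Id1* had 0 counts in all primary controls versus 1028, 0 and 1 under DM, at least 127-fold higher on the CPM scale against a limit of 3 counts per control library. That limit rests on DM replicate 1, and without it both groups were within the limit.

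*Id2* had 15691, 4117 and 1 counts in primary controls versus 1, 1 and 5 under DM, which is 135 ± 145 CPM (SD, n = 3) and 0.164 ± 0.155 CPM (SD, n = 3). The pattern was that of the primordial stage, with controls 1 and 2 high and control 3 and all DM libraries near 0. *Id3* had 196, 140 and 0 counts in controls versus 2, 11 and 0 under DM, so controls 1 and 2 were above every DM library and control 3 was level with the lowest. The filter removed both genes.

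The effect of DM over both stages was then estimated in a fit of stage and DM to all 12 libraries, a comparison that was added after the values had been seen. Of the 9 members tested, 0 had an adjusted p under 0.05 (0% of 8500 genes, edgeR), and 2, *Id1* and *Id2*, had an unadjusted p under 0.05, with 12.8% of all genes. They lay on opposite sides. The median log2FC was 0.69 over the members and -0.50 over all genes. *Id2* had a log2FC of -9.12 (SE 3.00, unadjusted p = 0.0023, adjusted p = 0.173, edgeR), and *Id1* had one of 10.03 (SE 3.18, unadjusted p = 0.0016, adjusted p = 0.168, edgeR). For *Id2* the value stayed between -9.58 and -8.58 when any of the 12 libraries was dropped. DESeq2 called 1 of the 9 members, *Id2*, with a log2FC of -7.40 (SE 1.43, adjusted p = 4.58e-05), and 8.56% of all genes, and gave no adjusted p for *Bmpr1a*, *Smad1*, *Smad5* and *Id1*. The filter kept *Id2* in this fit only through control libraries, where it was high. The p-values of *Id2* therefore describe the pattern and do not test it. The other members had log2FCs from -2.80 for *Smad1* to 4.78 for *Smad5*, with *Id3* at -0.61.

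*Id2* had over 100 counts in 4 of 6 control libraries and at most 5 in all 6 DM libraries, a pattern met by 23 of the 8500 genes (0.271%). These limits were set from the counts of *Id2* itself, so the share describes the pattern and does not test it. *Id1* had over 100 counts in 2 of 6 DM libraries and in 0 of 6 controls, as did 1.56% of the genes in at least 2 DM libraries. These limits match the counts of *Id1* itself, so this share too describes the pattern and does not test it. *Id3* was above 100 counts in 4 control and 2 DM libraries. The 4 control libraries with high *Id2* held 3783 to 7072 genes with over 100 counts, and the other controls 3192 and 1237. The DM libraries held 2515 to 4176 such genes in primordial and 1464 to 2240 in primary follicles. Primordial DM replicate 1 held 4176, with 3 counts of *Id2*, and every other DM library held 3562 or fewer. The part of this difference between libraries in the result was not tested.

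**Figure D3:**
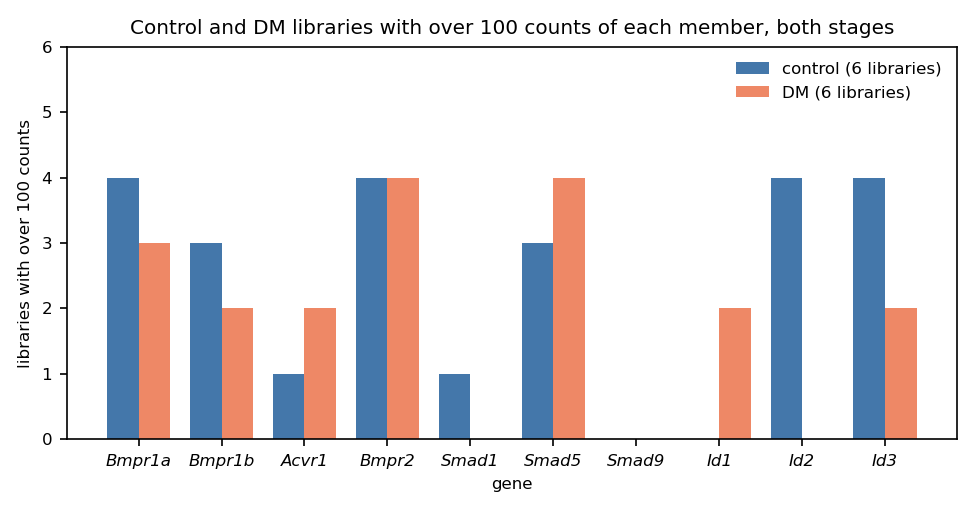
Number of libraries with over 100 counts (vertical axis, of 6) for each member (horizontal axis), with control libraries of both stages in blue and DM libraries in orange. *Id2* has 4 control and 0 DM libraries, *Id1* has 0 control and 2 DM libraries, and *Bmpr2* has 4 of each.

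**Figure D4:**
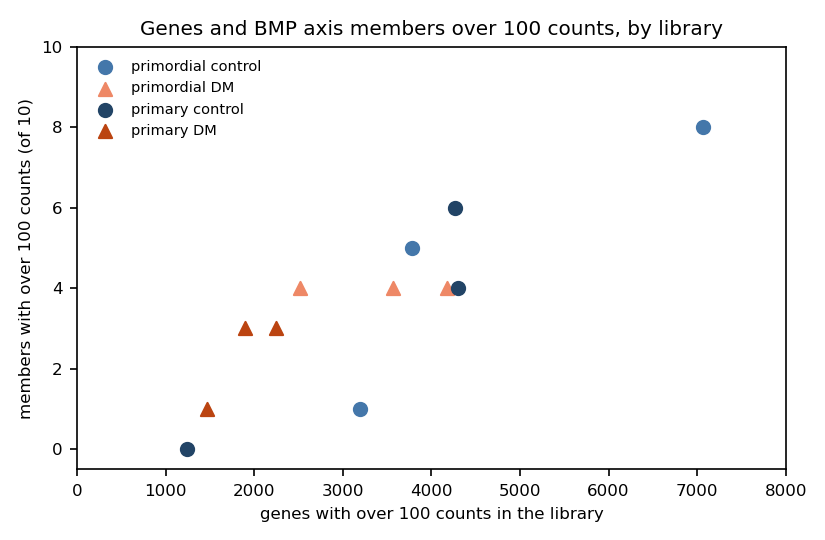
Genes with over 100 counts (horizontal axis) and members with over 100 counts, of 10 (vertical axis), in each of the 12 libraries, with circles for control and triangles for DM. Members over 100 counts range from 0 in primary control replicate 3, which has 1237 such genes, to 8 in primordial control replicate 1, which has 7072.

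Cell-type marker lists were summed in the same libraries. The summed level of the stroma and theca list was 1423 to 2893 CPM in primordial controls, 1659 to 3453 after DM, 1497 to 23347 in primary controls and 5733 to 21180 after DM. For the granulosa list the ranges were 479 to 1257, 422 to 2525, 455 to 26798 and 647 to 44252 CPM in the same order, and for the oocyte list 17.9 to 903, 16.4 to 851, 40.8 to 578 and 92.8 to 4267 CPM. The endothelial list, from cells in which *Id1* and *Id3* are known to be active, was at most 21.8 CPM in controls, and the immune list at most 0.968 CPM. In primordial DM replicate 2, where *Id1* had 4481 counts, the endothelial list was at 482 CPM and the immune list at 64.8 CPM, each the highest of the 12 libraries. Each of these sums rested on 1 marker with over 3 counts, and *Id3* had 0 counts in that library. In primary DM replicate 1, where *Id1* had 1028 counts, the endothelial and immune lists were at 2.87 and 29.7 CPM. In primary DM replicate 2, where *Id1* was at 0, these lists were at 95.2 and 0.628 CPM. The part of the marker lists in the results was not tested.

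The stages were compared within each treatment, since follicle growth itself could move the members. In controls, 0 of 6 members tested had an adjusted p under 0.05 (edgeR, 0% of 6726 genes), 0 had an unadjusted p under 0.05 (6.44% of genes), and DESeq2 called 0 (4.27%). DESeq2 gave no adjusted p for *Id3*. *Bmpr1a* was lower in every primary control library than in every primordial one, a separation shown by 7.43% of genes, with 2.01% higher in every primary library. The smallest p was that of *Smad5*, with a log2FC of primary against primordial of -5.31 (SE 3.24, edgeR adjusted p = 0.772). The others were *Bmpr1a* at -3.89, *Id3* at -3.61, *Id2* at 2.58, *Bmpr1b* at 0.94 and *Bmpr2* at 0.022.

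After DM, 0 of 4 members tested between the stages had an adjusted p under 0.05 (edgeR, 0% of 4331 genes) and 1, *Bmpr1b*, had an unadjusted p under 0.05 (17.2% of genes). *Bmpr1b* had 1, 0 and 1 counts in primordial and 9, 431 and 1348 in primary DM libraries, without overlap, as did 4.94% of genes in that direction. Its log2FC was 10.72 (unadjusted p = 0.0093, adjusted p = 0.286, edgeR), and DESeq2, which called 21.6% of all genes, called it with an adjusted p of 1.36e-07. *Bmpr1a*, *Bmpr2* and *Smad5* had log2FCs of 1.60, 0.68 and 0.064 in edgeR, and DESeq2 gave no adjusted p for *Bmpr1a*. The filter kept *Bmpr1b* only through the primary group, where it was high. Its p-values from edgeR and DESeq2 therefore describe the pattern and do not test it.

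Whether DM acted differently in the stages was tested by their interaction over the 12 libraries. Of 9 members, 0 had an adjusted p under 0.05 (edgeR, 0% of 8500 genes), and 1, *Bmpr1b*, had an unadjusted p under 0.05 (18.9% of genes). Its interaction was 9.89 on the log2 scale (SE 4.80, adjusted p = 0.244, edgeR, and 0.00239 from DESeq2, which called 7.96% of genes and 1 of the members). DESeq2 gave no adjusted p for *Bmpr1a*, *Smad1* and *Id1* here. The interactions of the other 8 ran from -8.72 for *Acvr1* to 5.92 for *Smad5*. Both comparisons of DM with control and the interaction share libraries, so they are not independent.

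Of 57 other genes of the BMP pathway, 56 were matched, 40 had over 3 counts in some library, and 14 had no count at all. In primordial follicles 18 passed the filter, 7 with estimates above and 11 below 0, with a median log2FC of -0.97, and in primary follicles 11 passed, 7 above and 4 below 0, with a median of 1.72. In both stages 0 had an adjusted p under 0.05 (edgeR). At an unadjusted p under 0.05 there were 3 of 18 in primordial follicles, where 7.33% of all genes passed. They were *Acvr2b*, *Smad4* and *Smurf1*, named after their values were seen. The filter kept *Smurf1* only through control libraries, where it was high, so its p-value describes the pattern and does not test it. In primary follicles there were 0 of 11, where 12.2% of all genes passed.

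Among the 16 ligands, 10 never exceeded 3 counts, *Bmp4* and *Bmp6* included. *Gdf9*, the oocyte growth factor and the ligand with the highest mean CPM, had 308, 38 and 48 counts in primordial controls versus 191, 68 and 0 under DM, and 1095, 707 and 4 in primary controls versus 0, 0 and 2389 under DM. Its log2FCs were -0.17 (SE 2.40, edgeR adjusted p = 0.992) and 1.72 (SE 2.88, edgeR adjusted p = 0.761). Among the other receptors, the activin type II receptor *Acvr2b* had the highest mean. It had 5273, 13 and 5 counts in primordial controls versus 82946, 12 and 12 under DM, and from 2 to 22 in the primary libraries. A single library of each treatment was high in the primordial stage, with a log2FC of 4.89 (SE 2.30, edgeR adjusted p = 0.658).

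*Smad4*, which encodes the common partner of all receptor-activated SMADs, had the highest mean of the SMAD partners and inhibitors. It had 21679, 69783 and 4399 counts in primordial controls versus 42, 33 and 27 under DM, so every control was above every DM library, as for 8.7% of the genes tested. The log2FC was -9.33 (SE 2.66, unadjusted p = 0.000442, edgeR adjusted p = 0.412). At the primary stage the control counts were 14942, 15115 and 38, versus 24716, 41 and 149078 under DM, a log2FC of 3.68 (SE 3.02, edgeR adjusted p = 0.518). The ubiquitin ligase gene *Smurf1* had 1303, 3603 and 4452 counts in primordial controls versus 5, 3 and 0 under DM, a log2FC of -10.59 (SE 4.44, edgeR adjusted p = 0.644). The filter kept *Smurf1* only through these controls, so its values describe the pattern and do not test it. The highest means among secreted antagonists and other targets were those of *Fstl1*, with log2FCs of -2.26 and -0.30 in primordial and primary follicles, and *Zfp36l1*, with 2.84 and 2.57, all with an edgeR adjusted p of at least 0.670.

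*Bmpr2*, the member with counts in 12 of 12 libraries and the highest mean CPM of those, was compared with 5532 genes that had counts in at least 10 libraries. The most similar profiles of log2(CPM + 1) over the 12 libraries were those of *Tax1bp1* (Pearson r = 0.948), *E2f4* (r = 0.914) and *Sbno1* (r = 0.859), given as a description, since all genes of a library share its depth and amplification. Between members, the highest r was 0.550 for *Acvr1* with *Id1* and the lowest -0.511 for *Bmpr1b* with *Smad5*. *Acvr1* and *Id1* were both over 100 counts in only 1 library, primordial DM replicate 2.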

How the data were processed

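Per the labels and the paper's methods, the authors trimmed reads with Trim Galore, mapped them to mm10 (TopHat2 in the paper, STAR in the submitters' processing notes) and deposited featureCounts counts per gene without normalization. Library preparation is described both as TruSeq RNA Access and as Smart-seq II. Of 55401 gene IDs, 55141 matched a symbol. Positions and exon lengths came from GENCODE M21 on GRCm38 (the same assembly as mm10), and promoter windows from RefSeq.

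The depth was 14034586 to 42639326 counts per library. Libraries within a group differed by far more than sampling noise (lowest chi-square over its degrees of freedom 1588). Comparisons used edgeR 4.0.16 in R 4.3.3 (filterByExpr, TMM, glmQLFit and glmQLFTest, prior count 0.125, Benjamini-Hochberg adjustment over all genes tested, threshold 0.05) on the libraries compared. Each standard error was the size of the fold change divided by the square root of F. CPM used total counts times TMM factors of all 12 libraries. The code was tested on simulated data with far less spread between libraries than these have. That test therefore does not show error rates or power for these libraries.

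Alternatives were DESeq2 1.42.0, its size factors or library size alone in edgeR, no filter, a replicate block, all 12 libraries in 1 fit, and each library left out. All 10 members were named; of the other pathway genes, those past the threshold and the highest mean CPM of each role were named. For the stage comparisons and the interaction, the member with the smallest p was named after the values were seen. Members and lists were chosen with earlier results on these data known. Tables used Python 3.11.15.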

Additional observations from a re-analysis of the deposited data

How the results depend on the processing

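In edgeR the number of members called was 0 in all 6 comparisons, also with DESeq2's size factors, library size alone, no filter, a replicate block or, for the 4 comparisons of 2 groups, all 12 libraries in 1 fit, and from 0 to 0 with each library left out in turn. With DESeq2 in place of edgeR it was 1 for DM against control in primordial follicles, 1 in primary follicles, 1 over both stages, 1 between the stages after DM and 1 for the interaction, and 0 between the stages in controls. DESeq2 gave no adjusted p for 3 of the 14 named results, and 11 pairs of member and stage were not tested because the filter removed the gene. The median log2 fold change of all genes with DM moved from 0.13 (primordial) and 0.31 (primary) with TMM factors to 0.56 and 2.04 under DESeq2's size factors and to -0.43 and -0.96 under library size alone, and the members' medians moved with it, from 1.41 and 4.32 to 2.04 and 6.86 and to 1.05 and 2.07. Under library size alone the log2 fold change of *Bmpr1a* in primordial follicles was -0.20, that of *Bmpr2* was -0.014 in primordial and -0.75 in primary follicles. The cause was not tested.

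The replicate numbers were not treated as pairs, since deviations of same-numbered libraries correlated between -0.0343 and 0.0395 and at most 2 of 6 libraries per comparison correlated best with their own number. With the replicate block, genes with an unadjusted p under 0.05 fell to 187 in primordial and 58 in primary follicles. Log2 fold changes with the block were -0.58 for *Bmpr1a* in primordial and -0.053 for *Bmpr2* in primary follicles. The block also moved *Smad5* from 7.09 to 0.67 and *Bmpr1a* from 5.42 to 1.33 in primary follicles, and *Bmpr2* from 0.17 to 2.53, *Smad5* from 1.79 to 4.02, *Id3* from 1.41 to 3.18 and *Acvr1* from 6.47 to 11.47 in primordial follicles. With each library left out in turn, log2 fold changes in primordial follicles ran from -0.28 to 0.78 for *Bmpr1a*, from -1.84 to 2.39 for *Bmpr2*, from -0.19 to 3.93 for *Smad5*, up to 5.64 for *Id3*, with the lowest at -0.997, and from 3.32 to 14.72 for *Acvr1*. In primary follicles they ran from -3.51 to 8.85 for *Bmpr1a*, from -1.20 to 8.71 for *Smad5*, from 0.27 to 2.47 for *Bmpr2* and from 2.17 to 4.72 for *Bmpr1b*. *Id1* over both stages ran from 7.49 to 11.33. With 3 libraries a group, standard errors on the log2 scale had medians over all genes of 2.84 (primordial) and 3.14 (primary).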
